A study of Bos taurus with 38 samples.

Results

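CYP7A1 (ENSBTAG00000005287) and NR1H4 (ENSBTAG00000013596) are 2 of the 24616 Ensembl genes counted in 38 liver libraries of dairy cows, and were taken as the rows of these 2 identifiers in every library. The libraries came from 9 Holstein and 10 Jersey cows of 1 Danish research herd, and each cow gave 2 biopsies of liver. One biopsy followed a low-concentrate control diet (C) and the other a high-concentrate diet (HC), in a crossover of 2 periods. The cows were grouped by residual feed intake (RFI), the feed eaten beyond that predicted for the animal, so that low-RFI cows are the more efficient. The groups held 5 low-RFI and 4 high-RFI Holsteins, and 5 low-RFI and 5 high-RFI Jerseys. Of the Holsteins, 3 cows were in each of parities 1, 2 and 3, and of the Jerseys 4 were in parity 1, 2 in parity 2 and 4 in parity 3. The diet came in the order C then HC for 4 Holsteins and 5 Jerseys, and the reverse for 5 and 5. The cows were assigned to the RFI groups from measured feed intake, so RFI, unlike diet, was not a treatment.

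CYP7A1, cholesterol 7-alpha-hydroxylase, is the rate-limiting enzyme of the classic route by which hepatocytes turn cholesterol into bile acids. NR1H4, also called FXR, is the nuclear receptor that senses bile acids. When bile acids bind it in liver and gut, NR1H4 induces signals, among them the repressor NR0B2 (SHP) in the liver, that lower the transcription of CYP7A1, which closes a feedback loop. Levels below are CPM, the read pairs of a gene scaled to the same total of read pairs on genes in every library. Levels of the 2 genes are not compared with each other, since CPM is not scaled to transcript length.

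Each library held 17472750 to 24478289 read pairs on genes. CYP7A1 was covered by 790 to 18200 read pairs and NR1H4 by 928 to 2137, so that the counting error of a level was at most 3.56% for CYP7A1 and 3.28% for NR1H4, below the spread between cows. In a biopsy, a lower level of a gene in hepatocytes and fewer hepatocytes in the sample cannot be told apart.

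Some libraries went against their labels. In 26 genes that were on in some libraries and off in others, the libraries of a cow were alike in 25 or 26 genes for 15 of the 19 cows. The libraries labelled as Jersey cow 10 were alike in 20 genes and those of Jersey cow 17 in 21, while the C libraries of these cows were alike in 25 and their HC libraries in 26. The libraries labelled as Jersey cow 14 were alike in 19 genes, as were those of Holstein cow 15. The C library of cow 14 was alike with the HC library of cow 15 in 25 genes, and the HC library of cow 14 with the C library of cow 15 in 25. Of 100 genes that differed most between the breeds in the other cows, 71 were on the Jersey side in the C library of Holstein cow 15 and 31 in the C library of Jersey cow 14, against 17 to 41 in the libraries of the other 8 Holsteins and 63 to 86 in those of the 7 Jerseys besides cows 10, 14 and 17. The HC libraries had 25 genes on the Jersey side for cow 15 and 51 for cow 14. Cows 10 and 17 share breed and RFI group but differ in parity and diet order, whereas cows 14 and 15 differ in breed and RFI group. Since each cow gave 1 biopsy on each diet, C libraries of cows 10 and 17 that are alike, and HC libraries that are alike, also put the diet labels of these cows in doubt. The labels were used as given, and the main fold changes and correlations are also given without these cows.

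CYP7A1 spanned a wide range among the low-RFI Holsteins on the C diet, at 69.5, 85.6, 330.4, 136 and 174 CPM in cows 1, 6, 11, 16 and 19. On the HC diet, the same cows had 67.5, 90.5, 201, 43.5 and 37.97 CPM. Cow 11 was the highest of these cows on both diets, and the lowest levels of all 38 libraries were those of cows 16 and 19 on HC. Among the high-RFI Holsteins, the C libraries had 184, 1042, 244 and 290.2 CPM in cows 2, 7, 9 and 15. Their HC libraries had 269, 228, 246 and 114 CPM. The C library of cow 7 held the highest CYP7A1 level of the series, while on HC the same cow was close to cows 2 and 9. Every high-RFI C library was above 4 of the 5 low-RFI C libraries, and cow 11 fell within the range of the high-RFI cows.

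In the low-RFI Jerseys, CYP7A1 was at 167, 169, 258, 142 and 155 CPM on C in cows 5, 8, 10, 14 and 17. Their HC libraries had 188, 109, 113, 562 and 217 CPM. The high-RFI Jerseys had 172, 74.8, 193, 362 and 142 CPM on C in cows 3, 4, 12, 13 and 18. On HC they had 229, 109, 412, 209.6 and 121 CPM. The 2 RFI groups of the Jerseys overlapped over most of their range on both diets.

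NR1H4 moved within a much narrower range. The low-RFI Holsteins had 50.02, 54.7, 58.3, 61.8 and 65.6 CPM on C in cows 1, 6, 11, 16 and 19. Their HC libraries had 60.6, 55.1, 51.2, 52.0 and 65.6 CPM. The high-RFI Holsteins had 65.1, 67.2, 68.6 and 72.9 CPM on C in cows 2, 7, 9 and 15. On HC they had 60.8, 71.4, 63.7 and 78.2 CPM. On both diets every high-RFI library was above those of 4 of the 5 low-RFI cows, and cow 19 was within the high-RFI range.

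In the low-RFI Jerseys, NR1H4 was at 115.4, 55.2, 71.8, 64.6 and 68.8 CPM on C in cows 5, 8, 10, 14 and 17. On HC these cows had 65.3, 51.5, 65.2, 61.6 and 54.9 CPM. The high-RFI Jerseys had 58.2, 71.4, 73.2, 84.6 and 75.5 CPM on C in cows 3, 4, 12, 13 and 18. Their HC libraries had 58.1, 57.0, 60.7, 72.6 and 78.3 CPM. The C library of cow 5 stood apart from all other libraries, and 9 of the 10 Jerseys had less NR1H4 on HC than on C.

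**Figure D1:**
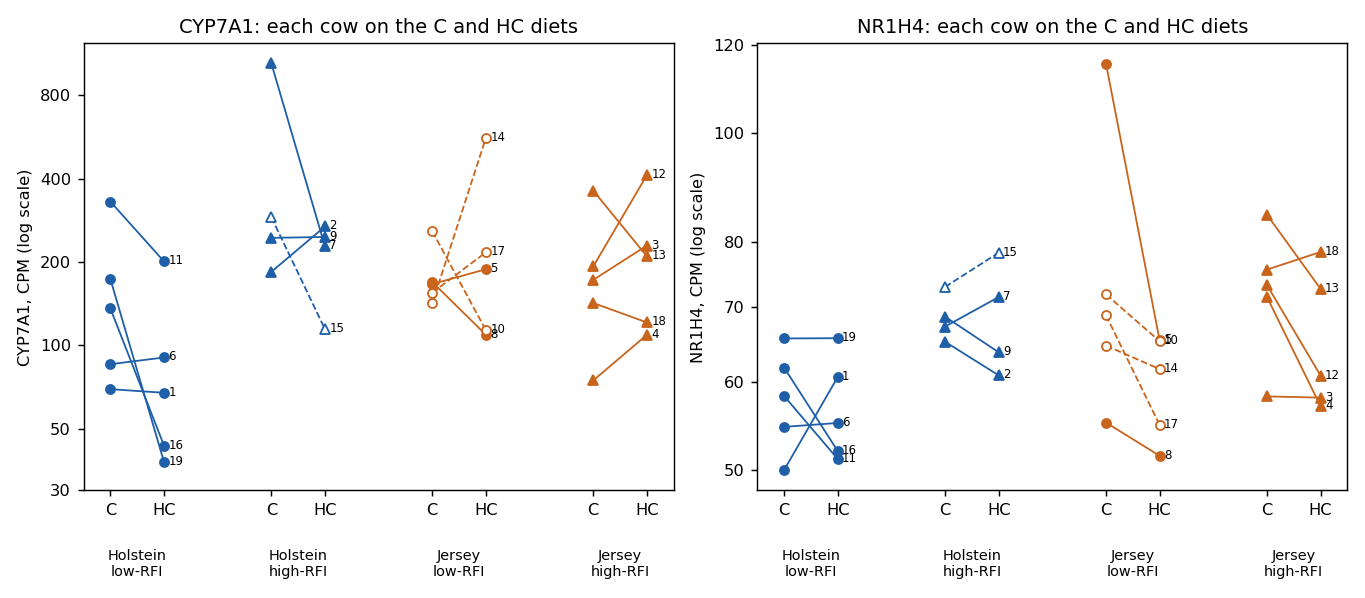
CPM of CYP7A1 (left) and NR1H4 (right) on log axes, 1 line per cow from its C to its HC library, with the cow number at the HC end; circles are low-RFI and triangles high-RFI cows, blue Holstein and orange Jersey, and open symbols with dashed lines mark cows 10, 14, 15 and 17. CYP7A1 spanned 37.97 to 1042 CPM and NR1H4 50.02 to 115.4 CPM, and the NR1H4 lines of 9 of 10 Jerseys go down.

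The levels were compared in edgeR's quasi-likelihood test, fitted over all genes of a breed with parity, diet and RFI as terms, with a Benjamini-Hochberg adjusted p under 0.05 as the threshold. Neither gene passed it in any of the 13 comparisons. The fits take the 2 libraries of a cow as separate samples, which for RFI, parity and breed counts each cow more than once. With the libraries of a cow summed, the genes called went from 8 to 0 for RFI in Holsteins, from 4 to 0 for RFI in Jerseys, from 46 to 1 and from 27 to 0 for parity, and from 1170 to 404 for breed. Beside the fits, 28 exact tests were made over whole cows or within cows with all cows, and 34 more with cows left out, and their p-values are unadjusted and two-sided.

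The RFI comparison asked whether the genes differed between efficient and less efficient cows. In Holsteins, the mean over cows of CYP7A1 was 327 ± 206 CPM (SD, n = 4) in the high-RFI and 124 ± 80.5 CPM (SD, n = 5) in the low-RFI cows. The log2 fold change, high- minus low-RFI, was 1.10 (SE 0.28, edgeR adjusted p = 0.253), and the exact permutation test over cows gave p = 0.0635. Without cow 7 the difference in cow means was 1.11 on the log2 scale (exact permutation test, p = 0.143), against 1.41 with it. NR1H4 had 68.5 ± 5.38 CPM (SD, n = 4) in the high-RFI and 57.5 ± 4.62 CPM (SD, n = 5) in the low-RFI Holsteins. Its log2 fold change was 0.26 (SE 0.06, edgeR adjusted p = 0.166), and the exact permutation test gave p = 0.0317, where the smallest p possible with 4 and 5 cows is 0.00794. Of all genes, 8 of 12025, or 0.0665%, were called in this comparison, and 0 of the 2 genes described here, while both had an unadjusted p under 0.05, as did 986 of the 12025 genes. Both genes are on the list of RFI genes that the study drew from these same Holsteins, so these values are no independent evidence of a difference. DESeq2 gave an adjusted p of 0.00944 for NR1H4, with 61 genes called. Without cow 15 the fold changes were 1.11 (SE 0.36) for CYP7A1 and 0.27 (SE 0.08) for NR1H4, with adjusted p-values of 0.246 and 0.192 in edgeR.

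The cows were chosen in blocks of a high-RFI and a low-RFI cow. In Holsteins, NR1H4 was higher in the high-RFI cow of all 4 complete blocks, by ratios of 1.15 to 1.33. CYP7A1 was higher in the high-RFI cow of 3 of the 4 blocks, at ratios between 0.924 for cows 9 and 11 and 9.26 for cows 7 and 1. Cows 7 and 1 were next to each other in RFI, at ranks 7 and 6 of the 9 Holsteins counted from the lowest RFI. High-RFI cow 15 was at rank 5, below low-RFI cow 1, so the 2 Holstein groups overlapped in RFI. In the Jerseys, each gene was higher in the high-RFI cow of 3 of 5 blocks, at ratios of 0.374 to 1.63 for CYP7A1 and 0.644 to 1.27 for NR1H4. Of these Jersey blocks, 3 hold cow 10, 14 or 17, among them both ends of the CYP7A1 range, and the other 2 had CYP7A1 ratios of 0.661 and 1.13 and NR1H4 ratios of 1.20 and 0.644. Cow 15 is in the Holstein block with ratios of 2.25 for CYP7A1 and 1.33 for NR1H4.

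In Jerseys, the cow means of CYP7A1 were 202 ± 92.3 CPM in the high-RFI and 208 ± 82.7 CPM in the low-RFI group (SD, n = 5 each), and the log2 fold change was -0.03 (SE 0.29, edgeR adjusted p = 0.996; exact permutation test, p = 0.944). Those of NR1H4 were 69.0 ± 8.66 and 67.4 ± 13.9 CPM (SD, n = 5 each), and the log2 fold change was 0.05 (SE 0.11, edgeR adjusted p = 0.994; exact permutation test, p = 0.706). The call was made for 4 of 11905 genes, or 0.0336%, and for 0 of these 2. Without cow 5, the fold change of NR1H4 was 0.22 (SE 0.06), with an unadjusted p of 0.00236 and an adjusted p of 0.484 in edgeR. Without cow 8 it was -0.03 (SE 0.11). Cows 10, 14 and 17 are all low-RFI, and without them 5 high-RFI and 2 low-RFI Jerseys, cows 5 and 8, were left. The fold changes were then -0.08 (SE 0.40) for CYP7A1 and -0.18 (SE 0.18) for NR1H4, while the differences in cow means, with no parity term, were 0.20 (exact permutation test, p = 0.667) and 0.01 (exact permutation test, p = 1). The effect of RFI in Jerseys minus that in Holsteins was -1.27 (SE 0.44) on the log2 scale for CYP7A1, with an unadjusted p of 0.00698 and an adjusted p of 0.322 in edgeR. For NR1H4 it was -0.21 (SE 0.13, adjusted p = 0.789), and -0.03 without cow 5 (SE 0.09). Of 12369 genes, 5 or 0.0404% were called for this difference, and 0 of the 2. It was -1.23 (SE 0.54) for CYP7A1 and -0.44 (SE 0.17) for NR1H4 without cows 10, 14, 15 and 17, with adjusted p-values of 0.461 and 0.378. The Holstein effect in this difference comes from the cows in which the study listed both genes for RFI. The difference is therefore no independent evidence that the RFI effect differs between the breeds.

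**Figure D2:**
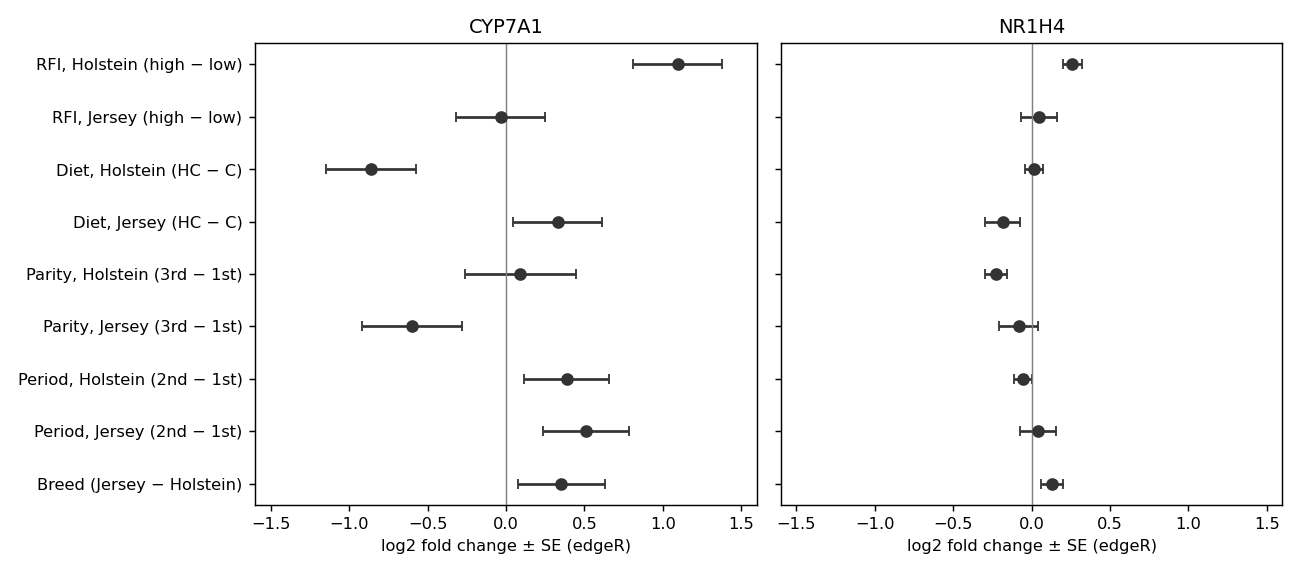
Log2 fold change (x axis) of CYP7A1 and NR1H4 in each comparison, from edgeR, with bars of 1 SE. The CYP7A1 values in Holsteins were 1.10 for RFI and -0.86 for diet, and none of the values shown had an adjusted p under 0.05.

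The diet comparison used both libraries of each cow. CYP7A1 was at 284 ± 297 CPM on C and 144 ± 91.6 CPM on HC in the Holsteins (SD, n = 9 each), and 6 of the 9 cows had less on HC. The log2 fold change, HC minus C, was -0.86 (SE 0.29), with an unadjusted p of 0.00826 and an adjusted p of 0.187 in edgeR. Within cows the mean change was -0.83 ± 1.04 (SD, n = 9; exact sign-flip permutation test, p = 0.0547), and it was -0.66 without cow 7 (exact, p = 0.109). Cows 7 and 19 had ratios of C to HC of 4.57 each, cow 16 of 3.13 and cow 15 of 2.53, whereas cows 1, 6 and 9 were at 0.971, 1.06 and 1.01 as ratios of HC to C. The 3 cows of parity 1 all had less CYP7A1 on HC, with a mean log2 change of -1.73 ± 0.43 (SD), while the 3 of parity 3 had a mean of 0.19 ± 0.31 (SD), and cow 15 is among the former. Parity 2 Holsteins had a mean of -0.97 ± 1.12 (SD, n = 3), and in Jerseys of parity 1 the mean was 0.36 ± 1.20 (SD, n = 4), with 2 of the 4 cows lower on HC. The parities were set side by side after their values were seen, and their difference was not tested. Of all genes, 94 of 12025 or 0.782% were called for diet in Holsteins, and 0 of these 2. With the cow as a fixed block in the fit, the log2 fold change of CYP7A1 was -0.80 (SE 0.27, adjusted p = 0.151), and -0.71 (SE 0.29, adjusted p = 0.268) when cow 15 was left out as well.

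In the Jerseys, CYP7A1 was at 183 ± 77.6 CPM on C and 227 ± 149 CPM on HC (SD, n = 10 each), with 6 cows higher and 4 lower on HC. On the log2 scale the fold change was 0.33 (SE 0.29, edgeR adjusted p = 0.687), and the mean within cows 0.19 ± 0.94 (SD, n = 10; exact sign-flip permutation test, p = 0.553). Cow 14 had 3.96 times and cow 12 2.14 times as much CYP7A1 on HC as on C, while cow 10 had 0.439 times as much. The fitted fold change of the Jerseys was 0.07 without cow 14 and, with cows 10, 14 and 17 all left out, 0.13 (SE 0.30, adjusted p = 0.951). The effect of diet in Jerseys minus that in Holsteins was 1.15 (SE 0.44) on the log2 scale, with an unadjusted p of 0.0144 and an adjusted p of 0.746 in edgeR. Over within-cow changes, the difference between the breeds was 1.02 (permutation of cows, exact p = 0.0398), and without cows 10, 14, 15 and 17 it was 0.85 (exact p = 0.101).

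NR1H4 was at 62.7 ± 7.23 CPM on C and 62.1 ± 8.91 CPM on HC in the Holsteins (SD, n = 9 each), with 5 cows higher and 4 lower on HC. On the log2 scale the fold change was 0.01 (SE 0.06, edgeR adjusted p = 0.960), and the within-cow test gave p = 0.754 (exact sign-flip permutation test). In the Jerseys, NR1H4 was at 73.9 ± 16.9 CPM on C and 62.5 ± 8.17 CPM on HC (SD, n = 10 each). The change within cows was -0.22 ± 0.25 on the log2 scale, and 9 of 10 cows had less on HC (exact sign-flip permutation test, p = 0.00586, where the smallest p possible is 0.00195). The exception, cow 18, had a change of 0.05, and the change of cow 5, at -0.82, was the largest. Without cow 5 the mean was -0.16 (exact sign-flip permutation test, p = 0.0117), and without cows 10, 14 and 17 it was -0.24 (exact, p = 0.0469). In the fit over all genes, edgeR gave a log2 value of -0.18 (SE 0.11) and an adjusted p of 0.548, and with the cow as a fixed block -0.17 (SE 0.07, unadjusted p = 0.0221, adjusted p = 0.305). Without cow 5, and with no block, it was -0.11. Diet calls in the Jerseys covered 44 of 11905 genes, or 0.37%, and 0 of the 2. The Jersey minus Holstein difference in the diet effect on NR1H4 was -0.19 (SE 0.13, edgeR adjusted p = 0.786), and -0.20 over within-cow changes (permutation of cows, exact p = 0.0369). The latter was -0.21 without cows 10, 14, 15 and 17 (exact p = 0.102). No gene was called for this difference (0 of 12369, 0%), with 817 at an unadjusted p under 0.05 and 1 called by DESeq2.

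The interaction of diet with RFI within a breed was below its SE for both genes in both breeds with all cows. In Holsteins it was 0.03 (SE 0.58) for CYP7A1 and -0.04 (SE 0.12) for NR1H4 on the log2 scale. In Jerseys it was -0.13 (SE 0.61) for CYP7A1 and 0.20 (SE 0.23) for NR1H4. Without cows 10, 14 and 17, with 2 low-RFI Jerseys left, it was 0.25 (SE 0.69) and 0.33 (SE 0.31). In edgeR 0 of 12025 Holstein genes (0%) and 0 of 11905 Jersey genes (0%) were called, with 206 and 443 at an unadjusted p under 0.05 and 0 and 2 called by DESeq2.

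Among Holsteins, the highest CYP7A1 cow means by parity were those of parity 2, at 245, 266 and 635 CPM in cows 9, 11 and 7. Of these, cows 7 and 9 are high-RFI and cow 11 low-RFI, and parity 2 was not tested against another parity. The first-parity Holsteins, cows 15, 16 and 19, had 202, 89.8 and 106 CPM, and cows 1, 2 and 6 of parity 3 had 68.5, 226 and 88.0 CPM. Parities 1 and 3 overlapped almost fully. Their log2 fold change, parity 3 minus parity 1, was 0.09 (SE 0.35, edgeR adjusted p = 0.958), and the exact permutation test over 3 and 3 cows gave p = 0.80, where 0.10 is the smallest p it allows. In Jerseys the means of parity 1 were 351.9, 286, 186 and 132 CPM in cows 14, 13, 17 and 18, those of parity 2 302 and 186 CPM in cows 12 and 10, and those of parity 3 201, 177, 139 and 92.0 CPM in cows 3, 5, 8 and 4. The log2 fold change was -0.60 (SE 0.32, edgeR adjusted p = 0.452; exact permutation test over 4 and 4 cows, p = 0.229). Without cows 10, 14 and 17 it was -0.48 (SE 0.40), and without cow 15 the Holstein value was 0.06 (SE 0.43).

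NR1H4 was at 66.0 ± 9.34, 63.4 ± 7.67 and 57.7 ± 4.54 CPM in Holsteins of parities 1, 2 and 3 (SD, n = 3 each). The log2 fold change of parity 3 against parity 1 was -0.22 (SE 0.07), with an unadjusted p of 0.00488 and an adjusted p of 0.207 in edgeR. Over cows the exact permutation test gave p = 0.20, with 0.10 again the smallest possible, and the cow means of the 2 parities overlapped. Without cow 15 the fold change was -0.23 (SE 0.09). In Jerseys NR1H4 was at 70.1 ± 8.88 CPM in parity 1 and 66.5 ± 16.5 CPM in parity 3 (SD, n = 4 each), and the log2 fold change was -0.08 (SE 0.13, edgeR adjusted p = 0.832; exact permutation test, p = 0.571) and -0.34 (SE 0.18) without cows 10, 14 and 17. Without cow 5 the Jersey fold change was -0.30 (SE 0.07), with an unadjusted p of 0.000541 and an adjusted p of 0.0816 in edgeR, and without cow 8 it was 0.02 (SE 0.12). The 2 second-parity Jerseys had 67.0 and 68.5 CPM. Parity calls were made for 46 of 12025 Holstein genes (0.383%) and 27 of 11905 Jersey genes (0.227%), and for 0 of the 2 in either breed.

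**Figure D3:**
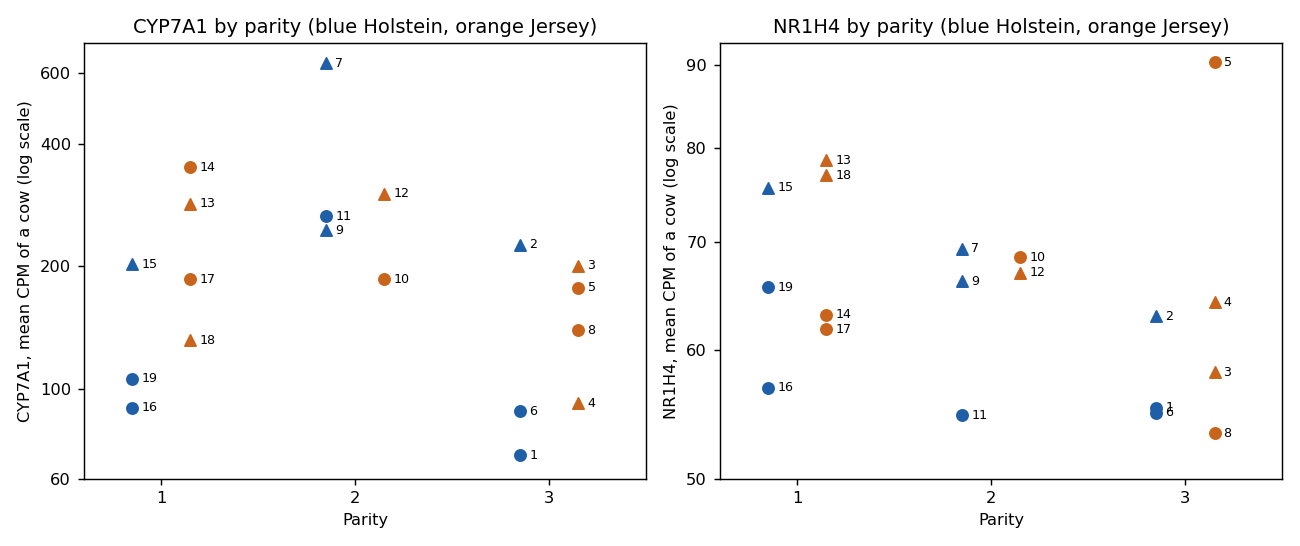
Mean CPM of the 2 libraries of each cow (log axes, cow numbers beside the points) for CYP7A1 (left) and NR1H4 (right) against parity; circles are low-RFI and triangles high-RFI cows. Second-parity Holsteins lie at 245 to 635 CPM for CYP7A1, above the Holsteins of parities 1 and 3, which was not tested, and the parities overlap for NR1H4.

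The period of the crossover was compared with diet in the fit. CYP7A1 was at 160 ± 95.0 CPM in the first and 268 ± 303 CPM in the second period of the Holsteins (SD, n = 9 each), with 4 cows higher and 5 lower in the second. On the log2 scale the fold change was 0.39 (SE 0.27, edgeR adjusted p = 1.00; exact permutation of diet orders, p = 0.397). In Jerseys it was at 157 ± 35.1 CPM in the first and 253 ± 151 CPM in the second period (SD, n = 10 each), and 7 of 10 cows were higher in the second. First-period Jersey libraries ran from 109 to 209.6 CPM and second-period ones from 74.8 to 562 CPM, so the second period held both the lowest and the highest. On the log2 scale the fold change was 0.51 (SE 0.28, edgeR adjusted p = 0.641; exact permutation of diet orders, p = 0.111), and 0.19 (SE 0.31) without cows 10, 14 and 17. NR1H4 had log2 fold changes for period of -0.05 (SE 0.06) in Holsteins and 0.04 (SE 0.12) in Jerseys, with adjusted p-values of 1.00 and 0.941 in edgeR and exact permutation p-values of 0.476 and 0.508. Without cow 15 the Holstein values were 0.36 (SE 0.31) for CYP7A1 and -0.06 (SE 0.06) for NR1H4, and without cows 10, 14 and 17 the Jersey value of NR1H4 was 0.05 (SE 0.15). Comparing the diet orders, which takes the period out of the diet effect, gave exact permutation p-values of 0.0794 and 0.50 for CYP7A1 in Holsteins and Jerseys and of 0.714 and 0.0159 for NR1H4, the last 0.114 without cows 10, 14 and 17. For NR1H4 in Jerseys the difference between the orders was -0.44 on the log2 scale over 5 and 5 cows. Without cows 10, 14 and 17 it was -0.45 over 3 and 4 cows, where the smallest p possible is 0.0286. In edgeR no gene of 12025 in Holsteins (0%) and none of 11905 in Jerseys (0%) was called for period, with 190 and 963 at an unadjusted p under 0.05 and 0 and 14 called by DESeq2.

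Between the breeds, the cow means of CYP7A1 were 214 ± 175 CPM in Holsteins (SD, n = 9) and 205 ± 82.7 CPM in Jerseys (SD, n = 10). Holstein cow means ran from 68.5 to 635 CPM and enclosed the Jersey means of 92.0 to 352 CPM. The mean CPM was thus lower in Jerseys, while the fitted value had the other sign. With diet, RFI and parity in the fit, the log2 fold change, Jersey minus Holstein, was 0.35 (SE 0.28, edgeR adjusted p = 0.467; permutation of cows, exact p = 0.507), and 0.14 (SE 0.30) with no parity term. NR1H4 was at 62.4 ± 7.43 CPM in Holsteins (SD, n = 9) and 68.2 ± 10.96 CPM in Jerseys (SD, n = 10), and the log2 fold change was 0.13 (SE 0.07, edgeR adjusted p = 0.241; permutation of cows, exact p = 0.216). Breed was the comparison with most calls, 1170 of 12369 genes or 9.46%, and 0 of the 2 genes were among them. With cows 10, 14, 15 and 17 left out, the fold changes were 0.25 (SE 0.29) for CYP7A1 and 0.18 (SE 0.09) for NR1H4, and without cow 5 alone that of NR1H4 was 0.05.

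The 2 genes differed in how much they varied. Among 6663 genes with a mean of at least 10 CPM, the SD of the cow means, centred within breed, was 0.74 on the log2 scale for CYP7A1 and 0.18 for NR1H4, against a median of 0.13 over all genes. Only 54 of these genes had a larger SD than CYP7A1, or 0.810%, while 23.1% had a larger one than NR1H4. Between the 2 libraries of a cow, the root mean square of the difference was 1.10 for CYP7A1, 0.25 for NR1H4 and 0.25 in the median gene, and 38 genes had a larger one than CYP7A1. Over the 15 cows besides cows 10, 14, 15 and 17, the SD was 0.81 for CYP7A1 and 0.18 for NR1H4 and the root mean square 1.02 and 0.27.

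How the 2 genes went together was examined over the cows of each breed, in 4 relations. In Holsteins, the cow means correlated with Pearson's r = 0.49 (exact permutation p = 0.175, adjusted over the 4 relations 0.701) and Spearman's rho = 0.27 (exact permutation p = 0.493, adjusted 0.948). Cow 7 had the highest CYP7A1 and cow 15 the highest NR1H4, both of the high-RFI group, and cow 11 had the lowest NR1H4 with the second highest CYP7A1. Leaving out cows 11 and 15, the farthest from the median of NR1H4, r was 0.78, and without cow 15 alone it was 0.56. These values pool the RFI groups, and both genes had higher means in the high-RFI Holsteins, so r also holds that group difference. No r was computed within an RFI group. In Jerseys r was 0.14 (permutation test, p = 0.694, adjusted 0.986) and rho -0.03 (permutation test, p = 0.945, adjusted 0.948), and r was 0.04 without cows 5 and 8. The Jersey r was 0.24 without cows 10, 14 and 17.

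The changes from C to HC in the 2 genes were set against each other in the same way. In Holsteins r was 0.01 (exact permutation p = 0.986, adjusted 0.986) and rho -0.03 (exact permutation p = 0.948, adjusted 0.948), and r was -0.57 without cows 1 and 16, the farthest from the median change in NR1H4. In Jerseys r was -0.05 (permutation test, p = 0.877, adjusted 0.986) and rho -0.15 (permutation test, p = 0.681, adjusted 0.948), and r was -0.02 without cows 5 and 18. It was -0.22 without cows 10, 14 and 17. Cow 5 shows how far the genes could part, since its NR1H4 was 1.77 times as high on C as on HC while its CYP7A1 was at 167 and 188 CPM. Cows 7 and 19 had the largest C to HC ratios of CYP7A1, and their NR1H4 was at 67.2 and 71.4 CPM and at 65.6 and 65.6 CPM on C and HC.

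**Figure D4:**
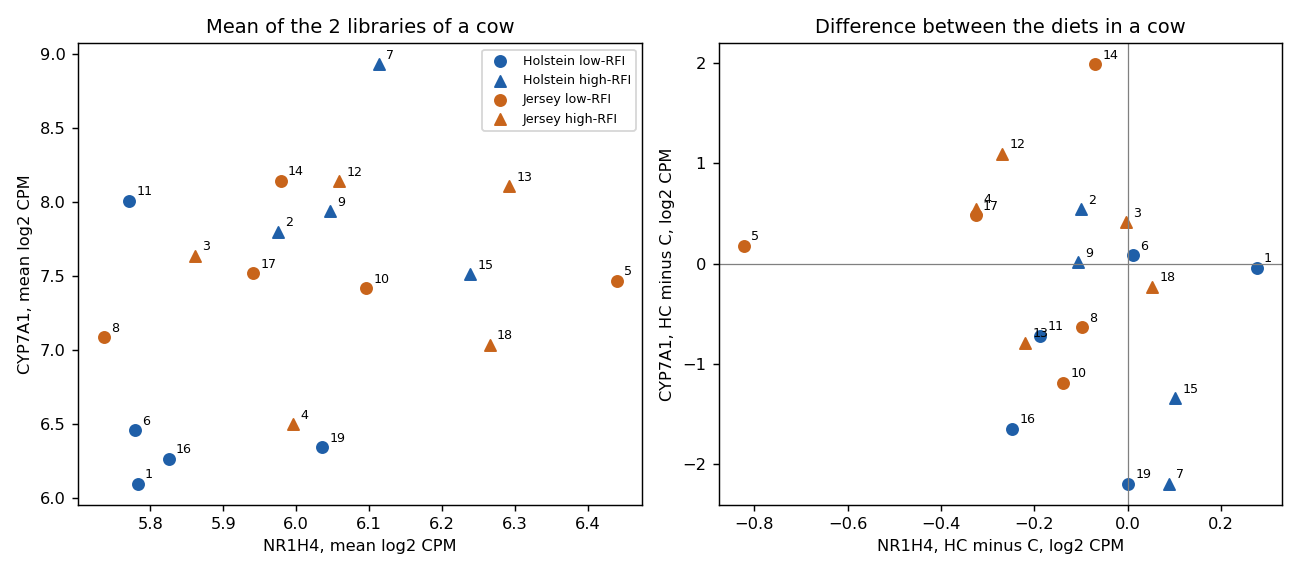
CYP7A1 (y axis) against NR1H4 (x axis) for each cow: mean log2 CPM of its 2 libraries (left) and HC minus C difference in log2 CPM (right), with the cow numbers. Pearson's r, with the RFI groups pooled, is 0.49 in Holsteins and 0.14 in Jerseys on the left, and 0.01 and -0.05 on the right.

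Other genes of the pathway could be followed only where the study's tables pair a symbol with an identifier. Of 15 enzymes of bile acid synthesis listed, 3 were paired, namely CYP7A1, HSD17B4 and ACOT8; of 16 genes of bile acid sensing and control only NR1H4, and of 15 transporters and 20 genes of cholesterol synthesis and uptake 0. The target NR0B2 is among those not followed here, and the liver label could not be checked, since 0 of 10 hepatocyte markers were paired. HSD17B4, the D-bifunctional protein of peroxisomal side-chain shortening, was called in 1 of the 13 comparisons, that of breed. Jerseys were higher there by a log2 value of 0.40 (SE 0.07), with an edgeR adjusted p of 0.000227. The breed comparison called 1170 of 12369 genes, or 9.46%. That fit counts each cow more than once, and HSD17B4 was not followed with libraries summed or cows left out. In the Holsteins, HSD17B4 had 814 ± 142 CPM in high-RFI and 624 ± 52.6 CPM in low-RFI cows (SD, n = 4 and n = 5), where edgeR gave an adjusted p of 0.279. ACOT8, a peroxisomal acyl-CoA thioesterase, was called in 0 of the 13, and had 19.3 ± 4.65 CPM in the high-RFI and 13.4 ± 2.39 CPM in the low-RFI Holsteins (SD, n = 4 and n = 5; adjusted p = 0.162 in edgeR). HSD17B4 and ACOT8 are, like CYP7A1, on the study's list of RFI genes in these Holsteins, which is how their symbols are known, and so their direction there is no independent evidence.

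Of 10 leukocyte markers 2 were paired, CD3D of T cells and NKG7 of natural killer and cytotoxic T cells. CD3D had 4.97 ± 0.47 CPM in the high-RFI and 3.22 ± 0.70 CPM in the low-RFI Holsteins (cow means, SD, n = 4 and n = 5; range 4.50 to 5.50 against 2.18 to 3.93), and NKG7 13.2 ± 2.05 and 9.34 ± 1.30 CPM (range 10.9 to 15.2 against 7.28 to 10.6), in the same contrast as the RFI values of CYP7A1 and NR1H4. Summed over these 2 markers, the high-RFI Holsteins ran from 16.1 to 20.2 CPM and the low-RFI ones from 11.2 to 13.8 CPM, and in the Jerseys the ranges were 9.53 to 14.6 and 11.3 to 16.8 CPM. The adjusted p-values of CD3D and NKG7 in the Holstein contrast were 0.282 and 0.220 in edgeR, and their part in the result was not tested. Both stand on the study's list as well, which is how their symbols are known. Their separation of these same Holsteins is therefore no independent evidence. The study's pathway results name CD3D as a core gene of immune pathways lower in high-RFI Holsteins, which is opposite to the direction of CD3D here. Why the directions differ was not tested.

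The genes whose cow means were most like those of CYP7A1 over the 19 cows, centred within breed, had Pearson's r of 0.72 to 0.79 for the top 5, and those most like NR1H4 0.73 to 0.82. None of these 10 carries a symbol in the tables used here; the first is ENSBTAG00000021842 for CYP7A1 and ENSBTAG00000023279 for NR1H4. The 2 genes had r = 0.31 with each other on this scale, which put NR1H4 at rank 806 among the genes most like CYP7A1. HSD17B4 had r = 0.36 with CYP7A1 and 0.48 with NR1H4, and ACOT8 0.40 and 0.06. Since all genes were measured in the same cows and libraries, and share their depth, these values are descriptions.

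In the opposite direction, singled out after its values were seen, FGFR2 (ENSBTAG00000014064), a receptor for fibroblast growth factors, had the lowest r with CYP7A1 of all 6663 genes, at -0.89. The cow means of FGFR2 ran from 53.8 CPM in cow 7, which had the highest CYP7A1, to 112 CPM in cow 1, which had the lowest. Within breeds r was -0.93 over the 9 Holsteins and -0.79 over the 10 Jerseys, and over the 15 cows besides cows 10, 14, 15 and 17 it was -0.90. It was -0.67 over the C libraries and -0.87 over the HC libraries, and -0.42 for the change from C to HC within cows. In Jersey cow 14, FGFR2 was at 78.0 CPM on C and 44.6 CPM on HC, where CYP7A1 was at 142 and 562 CPM. Spearman's rho was -0.46 over the C libraries and -0.32 for the change within cows. Since FGFR2 was picked for its r over all 19 cows, every one of these values is conditioned on that choice, and none is separate support. FGFR2 and CYP7A1 are also both on the study's list of RFI genes drawn from these Holsteins. The r of FGFR2 with NR1H4 is not among the 5 lowest for that gene, which ran from -0.81 to -0.78.

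**Figure D5:**
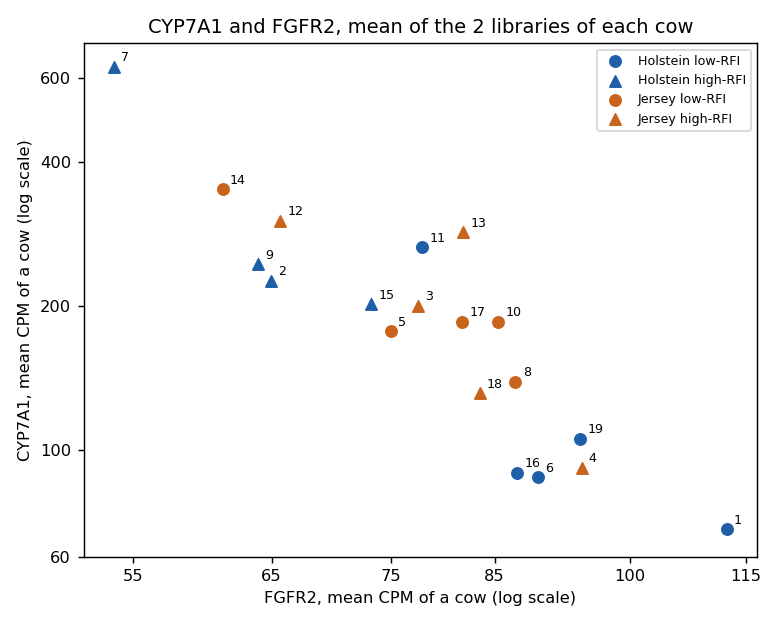
Mean CPM of CYP7A1 (y axis) against FGFR2 (x axis) for each of the 19 cows, both on log axes, with cow numbers; circles are low-RFI and triangles high-RFI cows, blue Holstein and orange Jersey. The points run from cow 7 (53.8 CPM FGFR2, 635 CPM CYP7A1) down to cow 1 (112 and 68.5 CPM).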

How the data were processed

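Liver RNA from 19 cows on 2 diets was sequenced from TruSeq Stranded mRNA libraries. The authors removed adapters with cutadapt 1.6f, aligned reads to UMD3.1 with STAR 2.3.0, allowing 5 mismatches, and counted read pairs per gene of Ensembl release 82 with HTSeq; the deposited values are raw counts. The strand setting of the counting is not given in the sources used here, so reads of overlapping genes on the other strand cannot be told apart. Rows that name no gene (no feature or ambiguous) held 20.1% to 25.1% of read pairs per library and were left out. Groups followed the labels (high feed efficiency is low RFI). Period and selection block came from the study's methods. The list of cows there names the RFI groups the other way round for every cow, so the direction of each RFI contrast follows the labels. The RFI values of that list are lower in the low-RFI cows as named here, apart from Holstein cows 1 and 15. The members and lists were chosen with earlier results of these data known.

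Genes with at least 1 CPM in 8 Holstein or 10 Jersey libraries (8 of 38 for both breeds) were fitted with edgeR 4.0.16 (TMM, quasi-likelihood), with parity, diet and RFI; SE is the fold change over the root of F. Alternatives were DESeq2 1.42.0, its size factors in edgeR, no filter, limma 3.58.1 voom taking cows as a random replicate block, edgeR with the cow as a fixed block, summed libraries, selection block, period, no parity, and cows left out; leaving out cow 14 or 15 with cows 10 and 17, and fixed-block fits with cows left out or period added, were chosen after seeing the data. By their labels, C and HC libraries with a number come from the same animal, which pairs them, but the on/off genes matched within only 15 of the 19 cows. On/off genes had a gap of at least 1.5 in log2(CPM + 0.1) with 4 or more libraries on each side, at least 1 CPM in the highest and at most 0.5 CPM in the lowest library. Exact permutation tests used cow means of log2 CPM or HC minus C differences; correlations over 10 cows used 100000 permutations. Likeness used log2(CPM + 1). The named genes are the 2 members, the called or most abundant list genes, and the 5 most alike; FGFR2 falls outside this rule and was chosen after its values were seen. The scripts were tested on simulated data. Fold changes with p-values in the study's tables were not used. No sequence or coordinates are given, since no sequence table for these genes was at hand.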

Additional observations from a re-analysis of the deposited data

Results flagged for a closer look

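Values that lay far from the others of their group were found in 9 of 28 groups tested. They were judged by the gap to the nearest value relative to the range of the group (Dixon's 95% limit). Chance gives about 1 in 20 only for independent groups of normally spread values. The groups share cows, so they are not independent, and the levels were tested as CPM, not as log2 CPM. The count is therefore no measure of an excess over chance. For CYP7A1, the C library of Holstein cow 7 was at 1042 CPM against 184 to 290.2 CPM in the other high-RFI Holsteins on C, and its cow mean of 635 CPM was likewise apart. In the low-RFI Holsteins the cow mean of cow 11, 266 CPM, was far above the others. In the low-RFI Jerseys, the C library of cow 10 was at 258 CPM and the HC library of cow 14 at 562 CPM, and the cow mean of cow 14 was 351.9 CPM; both cows are among those whose libraries go against their labels. For NR1H4, the C library of Jersey cow 5 was at 115.4 CPM, and its HC minus C change of -0.82 on the log2 scale stood apart from the other Jerseys. The NR1H4 cow mean of cow 19, 65.6 CPM, was above the other low-RFI Holsteins.

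The diet effect differed between the breeds when whole cows were permuted over the breeds, by 1.02 on the log2 scale for CYP7A1 (exact permutation test, p = 0.0398) and by -0.20 for NR1H4 (exact permutation test, p = 0.0369), both Jersey minus Holstein and unadjusted. Over all genes neither passed in edgeR. Without cows 10, 14, 15 and 17 the differences were 0.85 and -0.21, and the exact permutation p-values were 0.101 and 0.102.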

How the results depend on the processing

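All values here are log2 fold changes or r, and no cause of a shift was tested. Of 538 recomputed values, 500 kept direction and side of the threshold. NR1H4 for RFI in Holsteins passed with DESeq2 (0.26, adjusted p = 0.00944), against adjusted p-values of 0.0625 to 0.987 under its other alternatives. The direction turned without cows 10, 14 and 17 for NR1H4 RFI in Jerseys (-0.18) and for the CYP7A1 interaction in Jerseys (0.25), which the cow as a fixed replicate block also turned (0.063). It turned with summed libraries for CYP7A1 parity in Holsteins (-0.17) and with no parity term for the CYP7A1 interaction in Holsteins (-0.20). For CYP7A1 with NR1H4 in HC minus C, r turned in Holsteins with CPM (-0.27) or TMM-scaled values (-0.25), and in Jerseys with CPM (0.062) or without cows 10 and 17 (0.016). Leaving out 1 cow at a time turned a direction in some fits: CYP7A1 RFI in Jerseys ran from -0.24 to 0.16, NR1H4 RFI in Jerseys from -0.031 to 0.22, NR1H4 diet in Holsteins from -0.013 to 0.041, CYP7A1 parity in Holsteins from -0.11 to 0.33, NR1H4 parity in Jerseys from -0.30 to 0.017, NR1H4 period in Jerseys from -0.022 to 0.084, the Holstein interaction from -0.56 to 0.54 for CYP7A1 and from -0.11 to 0.026 for NR1H4, and the Jersey interaction of CYP7A1 from -0.48 to 0.36. For r in HC minus C the ranges were -0.27 to 0.15 in Holsteins and -0.27 to 0.0072 in Jerseys, and for cow means in Jerseys -0.0085 to 0.27. The replicate block changed no other direction and no call of the 2 genes.

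Over all genes, DESeq2 called 61 and 21 genes for RFI in Holsteins and Jerseys, 343 and 196 for diet, 199 and 269 for parity and 1416 for breed, against 8, 4, 94, 44, 46, 27 and 1170 in edgeR, and 45 against 5 for the RFI difference, 14 against 0 for period in Jerseys, 1 against 0 for the diet difference and 2 against 0 for the Jersey interaction. With the cow as a fixed block, edgeR called 345 and 71 genes for diet. With the cow as a random block, limma-voom, which is another method as well, called 5 and 3 for RFI, 7 and 10 for parity, 855 for breed and 0 for the RFI difference. Counting error is at most 3.56% for either gene.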

Other observations

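The level of NR1H4 was set out by the order of the diets after the data were seen, with no test. Jerseys that began on HC had a cow mean of 75.7 ± 10.1 CPM and those that began on C of 60.7 ± 5.17 CPM (SD, n = 5 each), with ranges of 64.2 to 90.3 and 53.3 to 67.0 CPM. Holsteins that began on HC had 66.3 ± 7.51 CPM (SD, n = 5) and those that began on C 57.5 ± 3.78 CPM (SD, n = 4), with overlapping ranges of 54.9 to 75.6 and 54.7 to 63.0 CPM. Without cows 10, 14, 15 and 17 the means were 77.5 ± 10.7 (SD, n = 4) and 59.5 ± 6.91 CPM (SD, n = 3) in Jerseys and 64.0 ± 6.28 and 57.5 ± 3.78 CPM (SD, n = 4 each) in Holsteins. In Holsteins 3 of the 4 high-RFI cows, against 2 of the 5 low-RFI cows, began on HC, so order and RFI cannot be fully told apart there.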
